A study of Mus musculus with 12 samples.

Results

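The mitotic genes described here are 36 genes that act from entry into mitosis to the separation of the daughter cells. They were named as a list and matched to the array by gene symbol, with the brightest probe set standing for a gene that has several. By this rule 35 of the 36 were measured among 19937 genes, and Ccnb1, which encodes cyclin B1, was not analysed here. The RNA came from Lewis lung carcinoma, a transplantable mouse tumour line, resected from the lungs of female C57BL/6 mice. Of the 4 groups, each with 3 arrays, 2 came from wild type mice and 2 from mice labelled RelA/p65 deficient. In each genotype 1 group was exposed to air and 1 to smoke. RelA/p65 is part of NF-kB, a transcription factor of inflammation. The series title places it in myeloid cells, but the labels state neither how the deficiency was made, nor in which cells, nor the age of the mice. Nor do they say whether each array stands for its own animal. The p-values therefore rest on the spread among these samples alone, and that spread may be technical. The comparisons ask whether genes of dividing cells in the tumour tissue differed with the genotype of the host and with smoke.

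In mitosis the kinase Cdk1, joined to cyclins A and B, drives the cell into division, and Polo-like and Aurora kinases build the spindle. Kinetochores tie chromosomes to the spindle, a checkpoint holds the anaphase-promoting complex until every chromosome is attached, and a contractile ring then divides the cell. The RNAs of these proteins are scarce in resting cells and peak in G2 and mitosis, so pathologists and biologists use several of them, Ki-67 (Mki67) above all, as signs of proliferation in tumours. Much of this timing is known to act at the promoter, through CCAAT boxes bound by NF-Y and through the cell cycle genes homology region (CHR), an element bound by the MuvB core of the DREAM complex, by B-Myb and by FoxM1.

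Of mitotic genes with a RefSeq window and either motif upstream, the 5 with the largest genotype difference, averaged over exposures, were taken. To show these letters, the 250 bases before their annotated start are printed. They were read from RefSeq windows of GRCm38.p6, in the direction of the gene, at chr9:70421555-70421804 (minus strand) for Ccnb2, chr4:117178773-117179022 (minus) for Kif2c, chr3:135212313-135212562 (plus) for Cenpe, chr1:189688087-189688336 (minus) for Cenpf and chr10:69352913-69353162 (minus) for Cdk1. Capitals mark CCAAT or its reverse complement ATTGG, and the CHR letters TTTGAA, their reverse complement TTCAAA, or TTTAAA, which is its own reverse complement.
Ccnb2: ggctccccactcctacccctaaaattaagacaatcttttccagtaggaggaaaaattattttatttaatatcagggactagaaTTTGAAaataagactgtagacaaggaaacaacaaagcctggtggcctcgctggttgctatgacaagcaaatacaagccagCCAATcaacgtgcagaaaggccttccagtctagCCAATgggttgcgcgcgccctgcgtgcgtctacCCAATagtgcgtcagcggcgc
Kif2c: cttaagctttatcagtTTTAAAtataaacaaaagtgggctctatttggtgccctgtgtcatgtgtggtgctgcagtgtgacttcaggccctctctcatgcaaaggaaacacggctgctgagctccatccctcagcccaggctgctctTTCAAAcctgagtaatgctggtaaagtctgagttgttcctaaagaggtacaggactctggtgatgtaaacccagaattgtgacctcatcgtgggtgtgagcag
Cenpe: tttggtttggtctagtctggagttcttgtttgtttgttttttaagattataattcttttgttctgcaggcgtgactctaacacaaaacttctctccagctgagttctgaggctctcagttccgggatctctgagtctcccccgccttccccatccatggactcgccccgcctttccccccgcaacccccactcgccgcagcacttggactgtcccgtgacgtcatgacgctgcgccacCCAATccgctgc
Cenpf: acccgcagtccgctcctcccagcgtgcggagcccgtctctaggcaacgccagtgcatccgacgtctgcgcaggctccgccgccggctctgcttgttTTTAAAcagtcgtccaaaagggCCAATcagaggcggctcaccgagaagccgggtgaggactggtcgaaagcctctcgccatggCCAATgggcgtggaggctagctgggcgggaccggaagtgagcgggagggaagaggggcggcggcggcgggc
Cdk1: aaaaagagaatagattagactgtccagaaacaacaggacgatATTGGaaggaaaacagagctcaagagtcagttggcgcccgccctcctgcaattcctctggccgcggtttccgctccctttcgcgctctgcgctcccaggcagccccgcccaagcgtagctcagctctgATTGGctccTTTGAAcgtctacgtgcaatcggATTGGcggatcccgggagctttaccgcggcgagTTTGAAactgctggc
The promoter of Ccnb2, which encodes cyclin B2, held 3 CCAAT boxes and 1 CHR match upstream of the start. That of Cdk1 held 3 and 2, and that of the kinetochore gene Cenpf 2 and 1. The kinetochore motor gene Cenpe held 1 CCAAT box in this stretch, and Kif2c, which encodes a microtubule-depolymerizing kinesin, held 2 CHR matches and no CCAAT box.

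RefSeq windows from 250 bases before to 50 after the start were found for 28 of the 36 genes, Ccnb1 included. Cdc25c, whose genotype difference averaged over exposures (-1.57) was larger than that of Kif2c (-1.50), had no window and was not searched. CCAAT on either strand was present in 22 of them (78.6%), against 41.1% of 27025 genes with a window. A CHR match was present in 24 (85.7%), against 30.6% of all genes, and both motifs in 20 (71.4%), against 12.2%. The CHR match lay within 50 bases of the start in 21 (75.0%) of the mitotic genes and in 9.54% of all genes, a distance chosen after the positions were seen. The motifs were searched separately and can share bases at their ends. In 29 DNA replication genes with a window CCAAT was present in 65.5% and a CHR match in 24.1%. Neither motif was found in the windows of Mad2l1 and Nuf2, only CCAAT in Nek2 and Bub1, and only CHR letters in Ndc80, Kif2c, Birc5 and Anln. A match is a run of letters in this window and was not tested as a binding site.

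**Figure D1:**
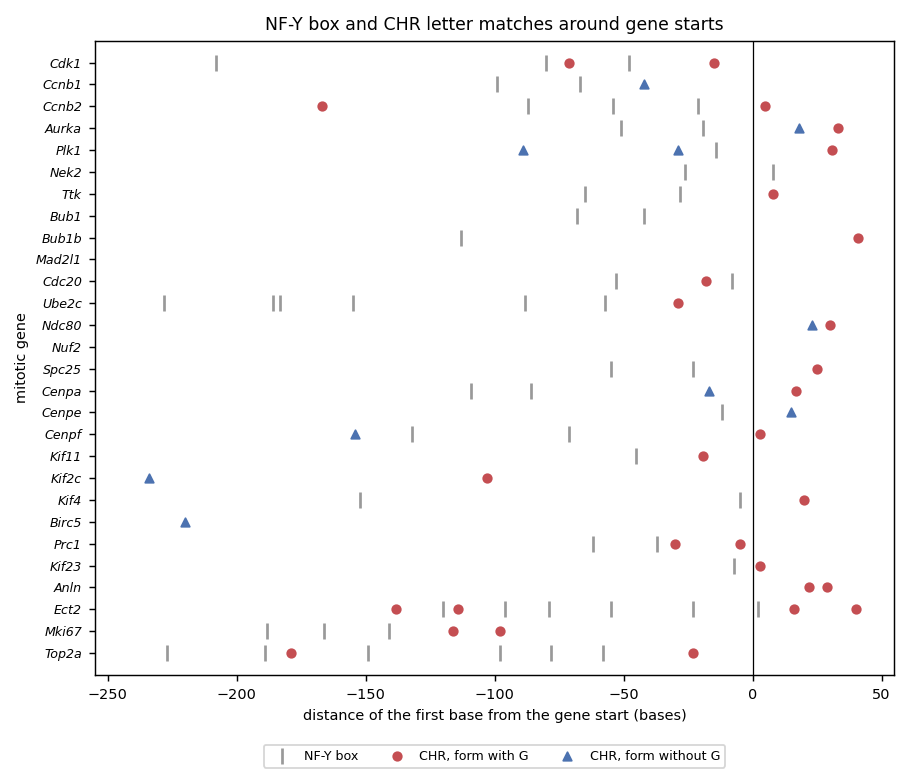
Distance in bases from the gene start to the first base of each motif match, for the 28 mitotic genes with a RefSeq window, 1 gene a line. Grey ticks are CCAAT boxes, the binding letters of NF-Y, red circles and blue triangles the CHR letters with and without G, and CHR matches lie within 50 bases of the start in 21 of the genes.

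The arrays give log2 expression, on which 1 unit is a factor of 2, and levels of different genes are not compared because probes differ in brightness. Rela itself was not lower where the labels say RelA/p65 deficient. It gave 9.22 ± 0.06 (SD, n = 3) in air and 9.08 ± 0.10 in smoke in wild type arrays, and 9.42 ± 0.04 and 9.31 ± 0.05 in the deficient ones. In the deficient groups it was higher, by 0.20 ± 0.07 (SE) in air (limma, adjusted p = 0.0285) and 0.23 ± 0.07 in smoke (adjusted p = 0.00873). These groups are called deficient arrays below, and their genotype rests on the labels. The tissue held RNA of host lung: the surfactant gene Sftpc of alveolar cells measured 13.89 ± 0.06 in wild type air and 12.31 ± 0.07 in wild type smoke. No marker of the tumour cells themselves was examined, so their share of the tissue is not known. In bulk tissue, fewer dividing cells and less of these RNAs per cell cannot be told apart. The median log2 expression over genes lay between 7.26 and 7.51 per array, and with 3 arrays a group their number sets the precision.

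The mitotic genes moved as a block across the 12 arrays. Their mean log2 expression was 9.44, 9.27 and 9.31 in the wild type air arrays and 9.79, 9.68 and 9.63 in wild type smoke. It was 8.36, 8.16 and 8.18 in deficient air and 8.56, 8.0 and 8.13 in deficient smoke. Every deficient array lay below every wild type array, the wild type smoke arrays lay above the wild type air arrays, and the deficient groups overlapped. By group means, wild type smoke was highest and wild type air next in all 35 genes, with deficient air lowest in 18 genes and deficient smoke in 17. Within groups the genes also went up and down together: the correlation of a gene's deviation from its group means with that of the other mitotic genes had a median of 0.92 over the 12 arrays, from 0.64 for Ube2c to 0.98 for Anln. These points share the arrays and their normalization, and the correlation is given as a description. The mean of the 35 genes had an SD of 0.09, 0.08 and 0.11 in wild type air, wild type smoke and deficient air. In deficient smoke it was 0.30, so that group weighs most in the correlation.

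**Figure D2:**
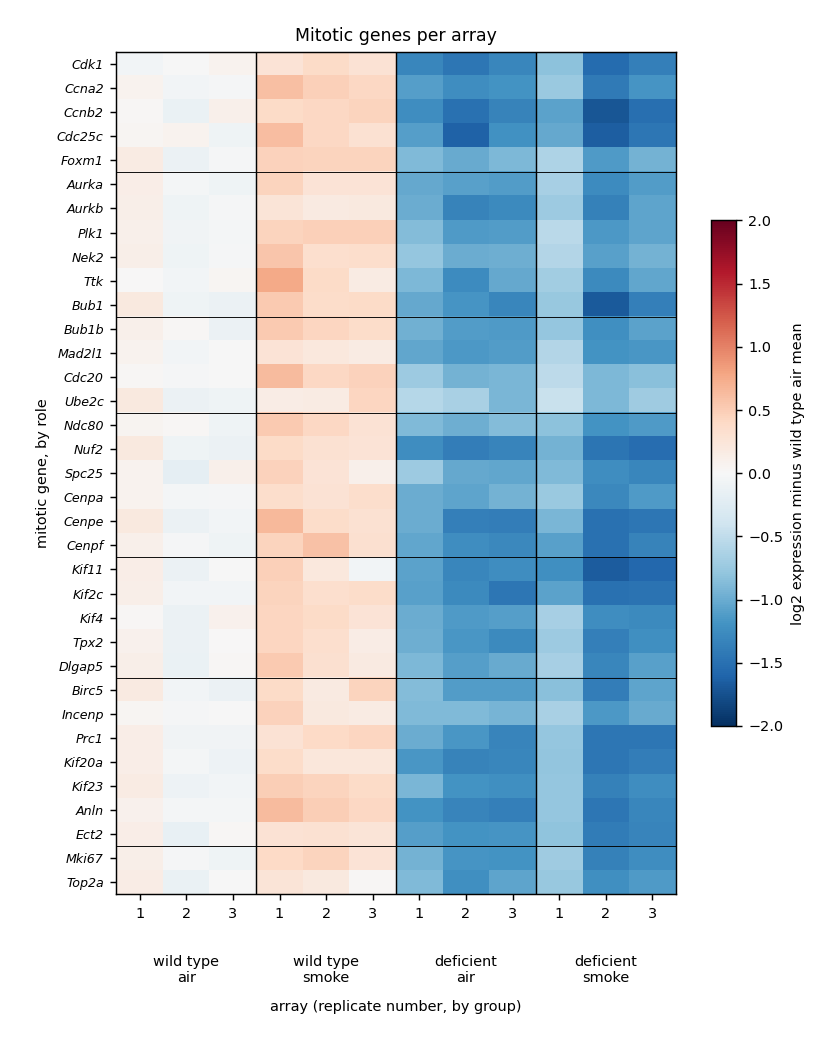
Log2 expression of the 35 mitotic genes in each of the 12 arrays, minus the mean of the gene in wild type air, with genes in rows by role and arrays in columns by group and replicate number. Red is above and blue below wild type air: the 6 deficient arrays are blue in all rows, and deficient smoke replicate 1 is paler than the other deficient smoke arrays.

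The largest differences lay between the deficient and the wild type arrays. In air all 35 mitotic genes were lower in the deficient arrays (limma, adjusted p from 1.71e-06 to 0.000554), against 18% of all genes called lower. The median difference was -1.11, a 2.15-fold lower expression, from -1.36 for Ccnb2 to -0.72 for Ube2c, beside -0.03 over all genes. In smoke all 35 were lower again, where 37.0% of all genes were called lower, with a median of -1.45 (2.74-fold) from -1.84 for Ccnb2 to -0.94 for Ube2c, beside -0.14 over all genes. The deficient arrays did not overlap the wild type arrays for any of the 35 genes in either exposure, where 26.3% of all genes lay wholly lower in air and 37.6% in smoke. A fall of at least 1 log2 unit that passed the test was found for 27 mitotic genes in air and 34 in smoke, against 1.31% and 2.56% of all genes. The comparisons in air and in smoke use different arrays.

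Smoke was compared with air within wild type hosts. Of the 35 genes 15 rose and none fell (limma adjusted p below 0.05), against 15.0% of all genes called higher and 14% called lower. The median difference was 0.37 (1.3-fold), from 0.17 for Top2a to 0.51 for Anln, beside 0.08 over all genes. The smoke arrays lay wholly above the air arrays for 32 of the 35 genes, against 20.8% of all genes, and Ube2c, Kif11 and Top2a overlapped. The number of genes that passed was 30 without deficient smoke replicate 1, with the median still 0.37. It was 7, 8 and 9 without wild type air replicate 2, wild type air replicate 3 or wild type smoke replicate 2, with medians of 0.34, 0.35 and 0.37. In these fits, in the same order, 28.0%, 29.3%, 18.5% and 22.5% of all genes passed in either direction, against 29.0% with all arrays. The number was 13 without wild type smoke replicate 1 (median 0.33), where 44.3% of all genes passed. It was 31 with each array centred on its median, where 49.4% of all genes passed. That step moved the median of all genes from 0.08 to 0.17.

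Within the deficient arrays, smoke gave no such difference that passed. None of the 35 genes passed the limma test, and none had an unadjusted p below 0.05, where 2.41% of all genes were called in either direction. The median difference was 0.01, from -0.28 for Kif11 to 0.16 for Aurkb, and all 35 genes overlapped between the groups, where 8.97% of all genes lay wholly higher and 13.7% wholly lower in smoke. The standard errors of these differences were 0.10 to 0.18, and a p that misses the limit does not show that smoke made no difference. The median was -0.18 without deficient smoke replicate 1, still with none of the 35 past the test and with 9 at an unadjusted p below 0.05. In that fit 1.41% of all genes passed.

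**Figure D3:**
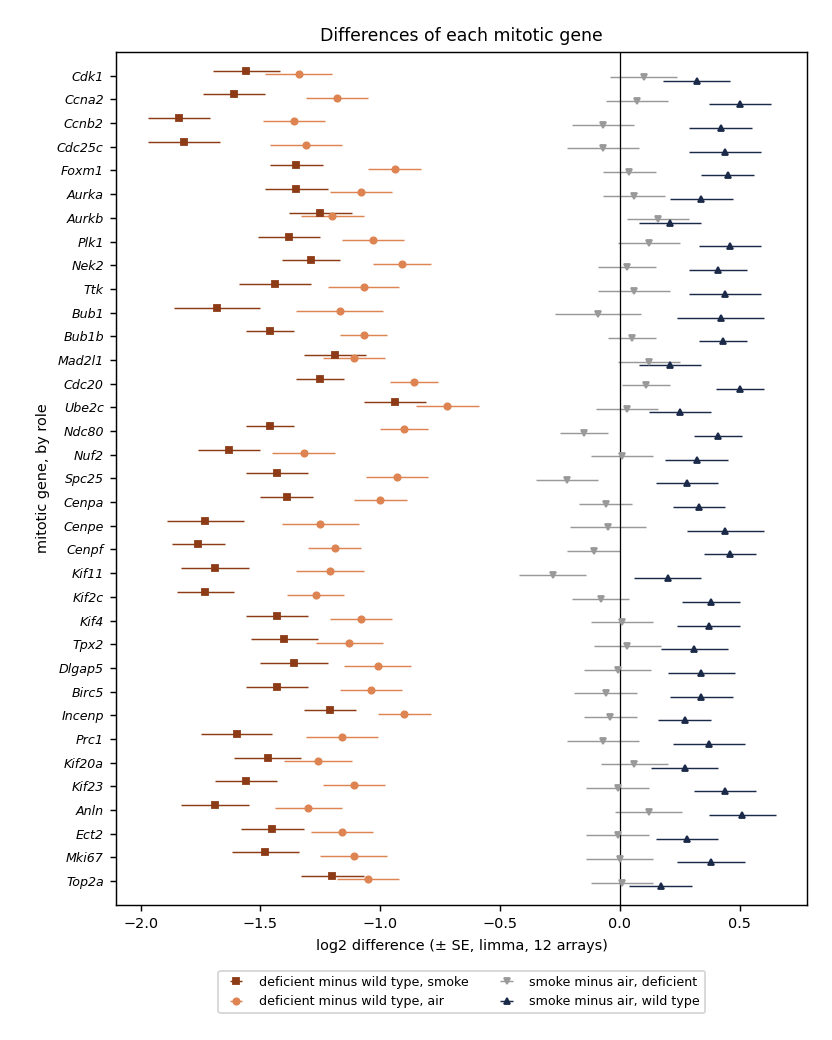
Log2 difference ± SE of each of the 35 mitotic genes in 4 comparisons, from the limma fit to all 12 arrays. Differences of deficient minus wild type arrays lie between -1.84 and -0.72, smoke minus air in wild type arrays between 0.17 and 0.51, and smoke minus air in deficient arrays between -0.28 and 0.16.

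Whether smoke acted differently in the genotypes was tested by the interaction of smoke and genotype, the smoke difference in deficient arrays minus that in wild type arrays. It was below 0 for all 35 genes, while only 7149 of all 19937 genes had an interaction above 0. The median was -0.38 for the 35 genes, beside -0.08 over all genes. It passed for 2 genes, Ndc80 and Cenpf, where 5.70% of all genes passed below 0 and 14.6% in either direction, so the share of the mitotic genes that passed was near the background. The count was 28 without deficient smoke replicate 1, with a median of -0.53, where 13.9% of all genes passed in either direction. It was 1 without any of wild type air replicate 3, wild type smoke replicate 2, deficient air replicate 1, deficient smoke replicate 2 or deficient smoke replicate 3. In those fits 11.2% to 12.8% of all genes passed.

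The array numbered 1 was the highest of its group for most mitotic genes in every group. In wild type air this held for 29 of the 35 genes, against 31.8% of all genes, in wild type smoke for 25, against 39.0%, and in deficient air for 31, against 52.1%. The genes lay a median of 0.17, 0.13 and 0.21 above the other arrays of these groups. The labels do not say that a number marks a shared animal or batch. With the number as a block, 26 genes rose with smoke in wild type arrays and 11 passed for the interaction. In that fit 30.5% and 15.1% of all genes passed in either direction.

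For the mitotic genes, deficient smoke replicate 1 stood furthest from its group. It was the highest of its group for 35 of 35 mitotic genes, against 34.3% of all genes, and the genes lay a median of 0.52 above the other deficient smoke arrays, from 0.32 for Cenpf to 0.76 for Bub1, where the median over all genes was -0.01. The DNA replication genes of that array averaged 8.75, against 8.41 and 8.49 in the other arrays of the group. Its alveolar epithelial markers averaged 11.42, against 11.56 and 11.48, and its endothelial markers 11.05, against 11.24 and 11.15. The part of these markers in the result was not tested. The median residual SD of the mitotic genes was 0.19 with all arrays and 0.11 without this one, the value that all genes had in either case. Over all genes another array stood out. Leaving out wild type smoke replicate 1 lowered their median residual SD most, from 0.11 to 0.09, while that of the mitotic genes stayed at 0.19.

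Among the cyclins and their partners Ccnb2 was the most different gene. This cyclin gave 10.63, 10.47 and 10.71 in air and 11.00, 11.02 and 11.05 in smoke in wild type arrays, and 9.36, 9.11 and 9.28 in air and 9.54, 8.90 and 9.10 in smoke in deficient arrays. Every deficient array lay below every wild type array, and wild type smoke lay above wild type air. It was lower by 2.57-fold in air (-1.36 ± 0.13, SE, adjusted p = 3.06e-06) and 3.59-fold in smoke (-1.84 ± 0.13, adjusted p = 6.73e-08), and rose 1.33-fold with smoke in wild type arrays (0.42 ± 0.13, adjusted p = 0.032). Cdk1, the kinase of these cyclins, gave 10.09, 10.14 and 10.22 in air and 10.43, 10.53 and 10.44 in smoke in wild type arrays, and 8.85, 8.71 and 8.85 in air and 9.33, 8.61 and 8.78 in smoke in deficient arrays. Its deficient smoke arrays spanned its deficient air arrays, and its wild type groups did not overlap. It was lower by -1.34 ± 0.14 in air and -1.56 ± 0.14 in smoke, while its smoke difference in wild type arrays, 0.32 ± 0.14, did not pass (adjusted p = 0.095).

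Ccna2, cyclin A2, rose with smoke in wild type arrays by 0.50 ± 0.13 and was lower in the deficient arrays by -1.18 in air and -1.61 in smoke. The phosphatase gene Cdc25c, which removes the inhibitory phosphates of Cdk1, rose by 0.44 ± 0.15 (adjusted p = 0.0468) and was lower by -1.31 and -1.82. Foxm1, a transcription factor of G2 and mitotic genes, gave 7.86, 7.58 and 7.67 in air and 8.16, 8.14 and 8.15 in smoke in wild type arrays, and 6.81, 6.69 and 6.80 in air and 7.09, 6.56 and 6.76 in smoke in deficient arrays. The genotypes lay apart in each exposure, and the deficient groups overlapped. Foxm1 rose by 0.45 ± 0.11 with smoke in wild type arrays and was lower by -0.94 ± 0.11 and -1.35 ± 0.11 in the deficient arrays, the smallest genotype difference among these 5 genes in both exposures.

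All 6 mitotic kinases were lower in the deficient arrays, by -0.91 (Nek2) to -1.20 (Aurkb) in air and -1.25 (Aurkb) to -1.68 (Bub1) in smoke. Plk1, the Polo-like kinase of spindle poles and kinetochores, gave 9.71, 9.54 and 9.57 in air and 10.05, 10.08 and 10.08 in smoke in wild type arrays, and 8.75, 8.47 and 8.50 in air and 9.07, 8.46 and 8.55 in smoke in deficient arrays. The wild type smoke arrays differed from each other by 0.02 in SD, while deficient smoke had an SD of 0.33 with replicate 1 on top. Plk1 was lower by -1.03 ± 0.13 in air and -1.38 ± 0.13 in smoke and rose by 0.46 ± 0.13 with smoke in wild type arrays (adjusted p = 0.0193). Nek2, a kinase of centrosome separation, and Ttk, the Mps1 kinase of the checkpoint, rose by 0.41 ± 0.12 and 0.44 ± 0.15. Ttk was close to the limit (adjusted p = 0.0494). The remaining 3 kinases did not pass in that comparison: Aurka at spindle poles had 0.34 ± 0.13, the checkpoint kinase Bub1 0.42 ± 0.18, and Aurkb, the catalytic part of the chromosomal passenger complex, 0.21 ± 0.13. The genotype difference of Aurkb was nearly the same in air and smoke (-1.20 and -1.25), and its interaction of -0.05 ± 0.18 was the smallest of all 35 genes.

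The checkpoint and anaphase group held Bub1b and Mad2l1, which restrain the anaphase-promoting complex, and Cdc20 and Ube2c, its activator and its ubiquitin-conjugating enzyme. Cdc20 gave 8.78, 8.72 and 8.74 in air and 9.39, 9.16 and 9.21 in smoke in wild type arrays, and 8.03, 7.80 and 7.84 in air and 8.22, 7.85 and 7.92 in smoke in deficient arrays. It was higher in every wild type smoke array than in any wild type air array, and the difference of 0.50 ± 0.10 (1.42-fold, adjusted p = 0.00219) had the smallest adjusted p of the 35 genes in that comparison. It was lower in the deficient arrays by -0.86 ± 0.10 in air and -1.25 ± 0.10 in smoke. Ube2c gave 8.82, 8.51 and 8.54 in air and 8.77, 8.79 and 9.05 in smoke in wild type arrays, and 8.05, 7.97 and 7.71 in air and 8.17, 7.72 and 7.91 in smoke in deficient arrays. Its wild type groups overlapped, and its genotype differences, -0.72 ± 0.13 (adjusted p = 0.000554) and -0.94 ± 0.13, were the smallest of the 35 genes. Bub1b rose with smoke in wild type arrays by 0.43 ± 0.10 and was lower by -1.07 and -1.46 in the deficient arrays. Mad2l1 had 0.21 ± 0.13 for smoke, which did not pass, and was lower by -1.11 and -1.19.

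Ndc80 and Cenpf, which passed for the interaction, belong to the kinetochore and centromere genes. Cenpf, a large protein of the outer kinetochore, gave 8.78, 8.65 and 8.60 in air and 9.13, 9.27 and 9.0 in smoke in wild type arrays, and 7.64, 7.43 and 7.39 in air and 7.59, 7.18 and 7.35 in smoke in deficient arrays. The wild type smoke arrays all lay above the wild type air arrays, while the deficient groups overlapped with lower values in smoke. Its smoke difference was 0.46 ± 0.11 in wild type arrays (adjusted p = 0.00681) and -0.11 ± 0.11 in deficient arrays (adjusted p = 0.9), and the interaction was -0.57 (adjusted p = 0.0223). Ndc80, which binds microtubules at the kinetochore, gave 8.65, 8.62 and 8.51 in air and 9.12, 9.0 and 8.88 in smoke in wild type arrays, and 7.71, 7.61 and 7.73 in air and 7.77, 7.39 and 7.45 in smoke in deficient arrays. In deficient smoke only replicate 1 reached the deficient air arrays. Its smoke difference was 0.41 ± 0.10 in wild type arrays (adjusted p = 0.00727) and -0.15 ± 0.10 in deficient arrays (adjusted p = 0.737), and the interaction was -0.56 ± 0.14 (adjusted p = 0.0145).

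Nuf2 and Spc25, also members of the Ndc80 complex, were lower in the deficient arrays by -1.32 and -0.93 in air and -1.63 and -1.43 in smoke. Neither passed for smoke in wild type arrays (0.32 and 0.28). Cenpa, the histone variant of centromeres, rose by 0.33 ± 0.11 and was lower in the deficient arrays, 2-fold in air and 2.63-fold (-1.39 ± 0.11) in smoke. Cenpe, the motor that carries chromosomes to the spindle equator, was lower by -1.25 ± 0.16 and -1.73 ± 0.16, and its smoke difference of 0.44 ± 0.16 just missed the limit (adjusted p = 0.0522).

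Among spindle motors Kif2c was lower by -1.27 ± 0.12 in air and -1.73 ± 0.12 in smoke. It gave 9.36, 9.19 and 9.20 in air and 9.70, 9.59 and 9.61 in smoke in wild type arrays, and 8.16, 7.98 and 7.80 in air and 8.18, 7.76 and 7.78 in smoke in deficient arrays. It was the only gene of its group of 5 to pass for smoke in wild type arrays (0.38 ± 0.12, adjusted p = 0.0245). Kif11, the Eg5 motor that pushes spindle poles apart, gave 9.49, 9.24 and 9.35 in air and 9.83, 9.57 and 9.30 in smoke in wild type arrays, and 8.29, 8.06 and 8.11 in air and 8.14, 7.70 and 7.79 in smoke in deficient arrays. Wild type smoke replicate 3 lay inside the wild type air range, and the smoke difference of 0.20 ± 0.14 did not pass. Kif11 was lower by -1.21 ± 0.14 and -1.69 ± 0.14 in the deficient arrays. The chromosome motor Kif4, the spindle assembly factor Tpx2 and the microtubule protein Dlgap5 were lower by -1.01 to -1.13 in air and -1.36 to -1.43 in smoke.

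Of the 7 genes of the chromosomal passenger complex and cytokinesis, Anln differed most by genotype. Anln encodes anillin, a scaffold of the contractile ring, and gave 10.23, 10.11 and 10.11 in air and 10.79, 10.64 and 10.56 in smoke in wild type arrays, and 8.95, 8.83 and 8.78 in air and 9.37, 8.70 and 8.84 in smoke in deficient arrays. It was lower by -1.30 ± 0.14 in air and -1.69 ± 0.14 in smoke, and rose by 0.51 ± 0.14 (1.43-fold, adjusted p = 0.0132) with smoke in wild type arrays. Kif23, a motor of the central spindle, also rose, by 0.44 ± 0.13. The passenger proteins Birc5 (survivin) and Incenp, the spindle midzone genes Prc1 and Kif20a, and Ect2, which activates RhoA at the cleavage site, had smoke differences of 0.27 to 0.37 that did not pass. In the deficient arrays the 7 genes were lower by -0.90 (Incenp) to -1.30 (Anln) in air and by -1.21 (Incenp) to -1.69 (Anln) in smoke.

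Mki67, which encodes Ki-67, gave 10.17, 10.03 and 9.96 in air and 10.45, 10.49 and 10.33 in smoke in wild type arrays, and 9.11, 8.87 and 8.85 in air and 9.34, 8.70 and 8.80 in smoke in deficient arrays. The wild type groups did not overlap, yet the difference of 0.38 ± 0.14 did not pass (adjusted p = 0.0575), and the deficient smoke arrays spanned the deficient air arrays. Mki67 was lower in the deficient arrays by 2.15-fold in air (-1.11 ± 0.14, adjusted p = 2.61e-05) and 2.8-fold in smoke (-1.48 ± 0.14, adjusted p = 9.06e-07). Top2a, the topoisomerase that untangles chromosomes before they part, had the smallest smoke difference in wild type arrays, 0.17 ± 0.13, and was lower by -1.05 ± 0.13 and -1.20 ± 0.13 in the deficient arrays.

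**Figure D4:**
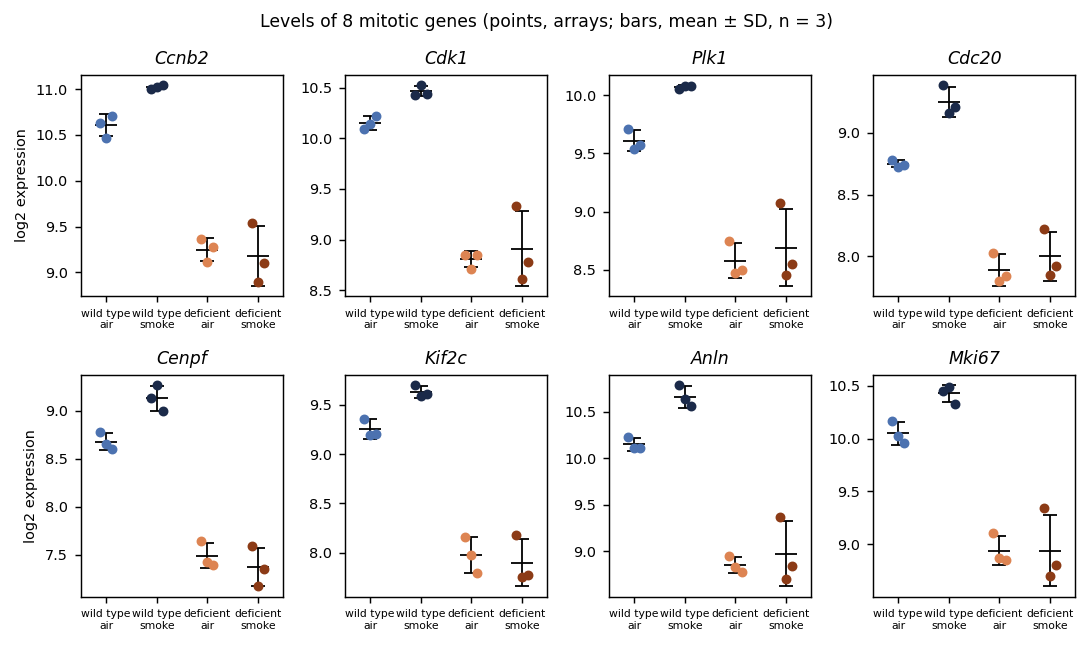
Log2 expression of 8 mitotic genes in each array, with points for arrays and bars for the mean ± SD (n = 3); each panel has its own vertical axis, which does not start at 0. In all 8 panels the deficient arrays lie below the wild type arrays, the wild type smoke arrays lie above the wild type air arrays, and deficient smoke has 1 array above the others.

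Other genes of the cell cycle were lower to differing degrees. Of 58 further mitotic genes measured, 56 were lower in the deficient arrays averaged over exposures, where 36.0% of all genes were called lower and 25.1% higher, with a median of -1.03 in air and -1.34 in smoke. Among them were Troap (-1.30 and -1.47), the central spindle gene Racgap1 (-1.35 and -1.76), the motor Kif18b (-1.15 and -1.19) and the spindle gene Tacc3 (-0.94 and -1.36). The securin gene Pttg1, chosen here after its values were seen, was higher by 0.39 ± 0.05 (adjusted p = 2.29e-05), and Mis18a, likewise, did not pass (-0.12 ± 0.08). All 35 DNA replication genes were lower averaged over exposures, with medians of -0.76 in air and -0.95 in smoke, among them thymidine kinase Tk1 (-1.08 and -1.31), the clamp loader Rfc4, the helicase subunit Mcm6 and the DNA ligase Lig1. Their medians are closer to 0 than those of the mitotic genes, a difference that was not tested.

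Of 22 genes of G1 and S entry 18 were lower and 4 higher over exposures, beside the same 36.0% and 25.1% of all genes. The ubiquitin ligase gene Skp2 (-1.18 in air and -1.42 in smoke) and the origin licensing gene Cdt1 (-0.96 and -1.26) were lower, with the S phase kinase activator Dbf4, and Rb1, the retinoblastoma protein that restrains S entry, was higher by 0.93 ± 0.11 and 1.11 ± 0.11. Condensin and cohesin genes split, with 13 of 18 lower and 1 higher. The condensin genes Ncapd2, Ncaph and Ncapg were lower by -1.32, -1.29 and -1.60 in smoke, the cohesin gene Rad21 by -0.68, and the cohesin gene Stag2, named after its values were seen, was higher by 0.33 ± 0.06 over exposures. The core of the anaphase-promoting complex, whose activator Cdc20 is given above, had medians of -0.26 in air and -0.29 in smoke, with Fzr1, its other activator, at -0.43 and -0.65 and the subunits Anapc2 and Cdc27 and the enzyme Ube2s at -0.37 to -0.42 in air. Among 12 genes of the DREAM and MuvB complexes and B-Myb, 6 were lower and 3 higher over exposures, the latter at the share of higher calls over all genes. Mybl2, which encodes B-Myb, rose with smoke in wild type arrays by 0.63 ± 0.13 and was lower by -0.69 and -1.17 in the deficient arrays, as were Tfdp1 (-0.79 and -1.07) and E2f4 (-0.39 and -0.64), while Tfdp2 was higher by 0.38 and 0.89.

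Markers of host cells moved beside the mitotic genes. Alveolar epithelial markers averaged 10.60 in air and 8.57 in smoke in wild type arrays and 11.49 in each deficient group, and all 12 were higher in the deficient arrays in each exposure, by medians of 0.84 and 2.88, where 20.5% of all genes were called higher in air and 22.7% in smoke. Airway epithelial markers averaged 9.52 and 7.27 in wild type air and smoke and 10.07 and 10.12 in deficient air and smoke. Of these 10 airway genes 7 were higher in the deficient arrays in air and 8 in smoke, and Krt5 passed in neither (0.06 and -0.16). Endothelial markers averaged 10.13 and 8.84 in wild type air and smoke and 11.14 and 11.15 in deficient air and smoke. All 10 endothelial genes were higher in the deficient arrays, by medians of 1.00 in air and 1.99 in smoke. In wild type smoke, where the mitotic genes were highest, the averages of these lung markers were lowest, and in the deficient arrays the reverse held. Their part in the genotype and smoke differences of the mitotic genes was not tested.

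Fibroblast markers averaged 9.76 to 9.88 in the 4 groups, with 4 genes higher and 5 lower of 10 by genotype over exposures, beside 25.1% and 36.0% of all genes. Macrophage and monocyte markers averaged 9.39 in wild type air and 10.17, 10.11 and 9.99 in wild type smoke, deficient air and deficient smoke. All 13 T and NK cell markers were higher in the deficient arrays in each exposure. In air 20.5% and in smoke 22.7% of all genes were called higher. The T and NK cell markers averaged 6.61 and 6.28 in wild type air and smoke and 8.06 and 7.57 in deficient air and smoke. In that order, B cell markers averaged 7.29, 6.71, 8.25 and 7.66 and neutrophil markers 6.10, 6.56, 6.72 and 6.99. Interferon response genes averaged 7.49, 7.61, 9.62 and 9.23, and wild type air replicate 1 had 8.17 against 7.16 and 7.15 in the other arrays of its group. The part of these cells and responses in the differences of the mitotic genes was likewise not tested.

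**Figure D5:**
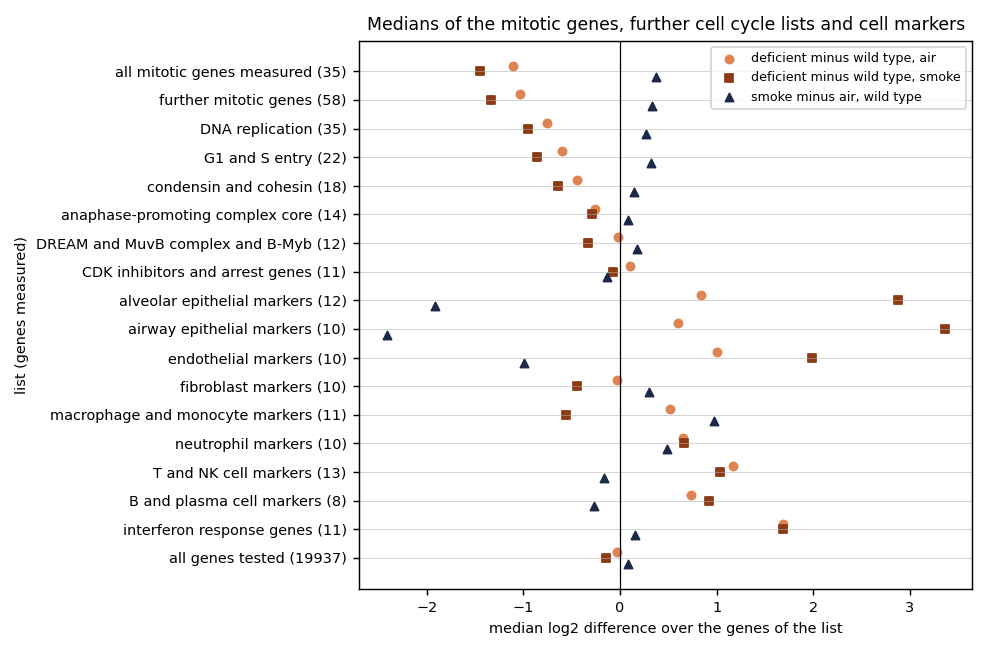
Median log2 difference over the genes of each list, with the number of genes measured, for deficient minus wild type arrays in air and in smoke and for smoke minus air in wild type arrays. The mitotic genes have the lowest genotype medians (-1.11 and -1.45), the further mitotic genes come next with -1.03 and -1.34, DNA replication genes have -0.76 and -0.95, and the alveolar markers have 0.84 and 2.88; comparisons drawn on 1 line share arrays.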

How the data were processed

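RNA of 12 samples was hybridised to Affymetrix mouse gene arrays. The authors deposited log2 values made with RMA in Affymetrix Expression Console, per the submitters' processing notes. RMA corrects background, gives arrays a common distribution by quantile normalization and summarizes probes, so a change in total RNA per cell would not be seen. The genome build was not given in the sources used here. Of 34760 probe sets 21640 name 1 gene symbol in the platform annotation, 1321 several and 11799 none or are unlisted. Only the first were used, with the brightest per gene, for 19937 genes. Of the mitotic genes measured 34 had 1 probe set and Top2a had 2.

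In limma 3.58.1 each group got its own mean in 1 model over all arrays and genes (R 4.3.3, Python 3.11.15, matplotlib 3.10.9), with residual df 8 and prior df 4.83. The moderated tests were 2-sided, and Benjamini-Hochberg adjustment covered every gene in a comparison (limit 0.05). The code was tested on simulated data. The fit was repeated with dim genes left out (15007 genes kept, those reaching a log2 of 6 in 3 or more arrays), with the mean of probe sets, quantile normalization, median centring, an intensity trend, array weights, the replicate number as a block, with only the arrays compared, and without each array. The mitotic genes and the lists were chosen with earlier results of these data known, and older symbols in lists were matched through gene table synonyms. Named genes were the mitotic genes, the 4 genes of each further cell cycle list with the smallest p for genotype averaged over exposures, up to 2 per marker list, Rela, and the 10 genes outside the lists most like the mean of the mitotic genes.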

Additional observations from a re-analysis of the deposited data

Results flagged for a closer look

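Ndc80 and Cenpf are listed because the test of the interaction of smoke and genotype passed for them. With 5.70% of all genes past the test below 0, a count of 2 among 35 mitotic genes is near the background. The median interaction of the 35 genes was -0.38, beside -0.08 over all genes. Of the 35, 16 had an unadjusted limma p below 0.05, a share that was not counted over all genes. The smoke difference in deficient arrays minus that in wild type arrays was -0.56 for Ndc80 (limma, adjusted p = 0.0145) and -0.57 for Cenpf (adjusted p = 0.0223). Without deficient smoke replicate 1 these were -0.67 (adjusted p = 0.00157) and -0.68 (adjusted p = 0.00614). Cenpf did not pass when wild type air replicate 3 was left out, nor without wild type smoke replicate 2, deficient air replicate 1, deficient smoke replicate 2 or deficient smoke replicate 3, at -0.48 to -0.56.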

How the results depend on the processing

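The genotype results did not depend on the settings run: all 35 mitotic genes were lower in air, in smoke and averaged over exposures in each of them. Of all genes 32.4% to 51.2% passed in air in these settings, in either direction. In smoke 49.4% to 77.9% passed, and over exposures 55.4% to 80.1%. Leaving out each array in turn gave medians for the mitotic genes of -1.19 to -1.06 in air, -1.60 to -1.36 in smoke and -1.35 to -1.21 over exposures. Median centring gave -1.18, -1.60 and -1.38, and moved the median of all genes in smoke from -0.14 to -0.28. The count of genes that rose with smoke in wild type arrays was 25 with quantile normalization, 31 with median centring and 26 with the replicate block, against 15. In the same order 35.1%, 49.4% and 30.5% of all genes passed in either direction, against 29.0%. This count ranged from 7 to 30 when 1 array was left out, where 29.3% and 28.0% of all genes passed. The interaction count was 6 with quantile normalization, 9 with median centring, 9 with array weights and 11 with the replicate block, against 2. In the same order 17.9%, 18.4%, 33.4% and 15.1% of all genes passed in either direction, against 14.6%. The interaction count ranged from 1 to 28 when 1 array was left out, with 13.9% of all genes passing at the count of 28. The median smoke difference in deficient arrays ranged from -0.18 to 0.12 when 1 array was left out. The causes of these changes were not tested. Of 18 pairs of arrays with the same replicate number 7 had deviations that correlated above 0.1 (r from -0.363 to 0.365), so the numbers were not taken to pair the samples. No result for a mitotic gene that passed changed sign.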

Other observations

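Of 11 CDK inhibitors and arrest genes measured, 5 were higher and 3 lower in the deficient arrays averaged over exposures, where 25.1% of all genes were called higher and 36.0% lower, so the share that was lower did not exceed the background. Btg2, an antiproliferative gene, was higher by 0.96 ± 0.09 in air and 1.90 ± 0.09 in smoke. The CDK inhibitor genes Cdkn1c and Cdkn2b were higher by 0.61 and 0.50 in air and by 1.36 and 1.24 in smoke. In wild type arrays these 3 genes fell with smoke, by 0.99, 0.91 and 0.57 on the log2 scale. Gadd45a, a stress-induced arrest gene, was lower in the deficient arrays by -1.15 ± 0.09 and -0.95 ± 0.09.

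The genes outside the lists whose log2 expression followed the mean of the 35 mitotic genes most closely over the 12 arrays were Knstrn, Shcbp1, Smyd2, Fam83d, Bnc1, Galnt7, Cdca7, Jpt2, Dtl and Clmp, with Pearson r of 0.995 to 0.997. The kinetochore gene Knstrn was lower in the deficient arrays by -1.18 in air and -1.57 in smoke, and the replication gene Dtl by -1.36 and -1.67. The correlation follows the differences between the 4 groups and is given as a description.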
